A study of Mus musculus with 16 samples.

Results

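The members described here are the nuclear genes of the mitochondrial respiratory chain, taken from the count table as the protein-coding rows whose names start with Nduf, Sdh, Uqcr or Atp5 or with Cox4 to Cox8. The rule gave 98 of 55450 rows (21951 of them protein-coding), on 19 chromosomes. By name they are 36 subunits of complex I, 8 complex I assembly factors, 4 subunits and 4 assembly factors of complex II, 8 subunits of complex III, 20 of complex IV (with Ndufa4 and Ndufa4l2), 17 of complex V and Atp5s, a factor that couples complex V. The rule used names only and no measured value. Other nuclear genes of the chain with other names, such as Cyc1, are not members and are given apart.

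RNA came from CD4+ and CD8+ tumor-infiltrating lymphocytes (TILs) of s.c. B16F10 tumors, a transplanted mouse melanoma. The hosts were C57BL/6J wild-type (WT) mice and Sirt2-/- mice (B6.129-Sirt2tm1.1Fwa/J, a germline deletion of the deacetylase Sirt2), 7 to 8 weeks old and matched for age and sex, and the labels name no other treatment. Each group of cell type and genotype held 4 libraries of rRNA-depleted total RNA, 16 in all. The study's methods give 4 mice per group, and neither they nor the labels say which CD4+ and CD8+ libraries came from the same mouse.

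The respiratory chain sits in the inner mitochondrial membrane. Complex I (NADH dehydrogenase) and complex II (succinate dehydrogenase) pass electrons to ubiquinone, complex III passes them on to cytochrome c, complex IV (cytochrome c oxidase) reduces oxygen, and complex V (ATP synthase) makes ATP from the proton gradient that complexes I, III and IV build. Most subunits are encoded in the nucleus and are assembled with a small set made from mitochondrial DNA, whereas complex II is nuclear-encoded throughout. In T cells, activation is accompanied by mitochondrial biogenesis, and the chain supports both proliferation and memory.

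Total counts per library ranged from 28000949 to 62407851. The 3 libraries that stood apart by the genes they detected were Sirt2-/- CD4+ replicate 4 (8169 genes), WT CD4+ replicate 1 (12587) and WT CD8+ replicate 1 (14411). In these 43, 11 and 8 of the 98 members were at 0, against 5 to 9 members in the other 13 libraries. Results are therefore given with all 16 libraries and with the 13. Levels are CPM, the share of counts scaled to a common library size, after TMM normalization. Cd4 stood at 384 to 620.2 CPM in CD4+ and 0 to 4.93 CPM in CD8+ libraries, whereas Cd8a and Cd8b1 together stood at 14.0 to 74.9 and 1461 to 2046 CPM. Sirt2 stood at 33.4 to 75.6 CPM in WT and 0 to 12.2 CPM in Sirt2-/- libraries. The sum of 5 melanoma markers was highest in WT CD4+ replicate 1 (84.2 CPM) and Sirt2-/- CD4+ replicate 4 (27.5 CPM) and at most 11.5 CPM elsewhere, and 8 macrophage markers summed to 1.496 to 34.5 CPM. The sum of 4 vessel and pericyte markers was 56.4 to 164 CPM in CD4+ and 36.2 to 78.4 CPM in CD8+ libraries, nearly all of it Pecam1, which T cells also express. The sum of 4 stromal markers (Col1a1, Col1a2, Col3a1 and Dcn) was at most 11.1 CPM in WT libraries and reached 56.7 CPM in Sirt2-/- CD4+ replicate 2 and 53.1 CPM in Sirt2-/- CD8+ replicate 4, which are among the 13. The sum of 4 T cell markers (Cd3e, Cd3d, Cd3g and Trac) had a median of 1372 CPM in WT CD4+ and 1609 CPM in WT CD8+ libraries. In Sirt2-/- TILs its median was 1274 CPM in CD4+ and 1840 CPM in CD8+ libraries. These markers too were thus higher in CD8+ TILs, with overlap in WT. The part of T cell content and of other cells in the results below was not tested.

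Of the 98 members, 94 had at least 1 count in some library. Per kb of exon, the highest median levels over 16 libraries were those of Atp5h, the d subunit of the stator of complex V (169.6 CPM per kb), Uqcrb of complex III (103), Cox7b of complex IV (89.5), Ndufa13 of complex I (64.9) and Sdha, the flavoprotein of complex II (55.3). Lowest in the same complexes were Atp5g1, which encodes the c-ring protein (2.91), Uqcrc1 (23.6), Cox6b2 (0.0410), Ndufb2 (0.615) and Sdhc (11.2). Lengths were unions of all exons, so the ranks rest on them. The union exceeded the longest coding transcript for Uqcrc1 (4135 against 1653 bases) and Atp5h (1465 against 682 bases), for example. Assembly factors were lower than most subunits, from 3.10 (Ndufaf6) to 14.7 CPM per kb (Ndufaf8) for complex I and from 0.970 (Sdhaf3) to 6.87 (Sdhaf1) for complex II, and Atp5s stood at 1.04.

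Complex IV members that exist as tissue isoforms fell into expressed and silent partners. No count was found for Cox7b2, Cox8b, Cox8c or the second Atp5o row (ENSMUSG00000116933.1) in any library, and Cox4i2, the lung and hypoxia form of Cox4i1, had counts in WT CD8+ replicate 2 alone (0.211 CPM). The striated muscle forms Cox6a2 and Cox7a1 reached at most 3.89 and 1.24 CPM, the testis form Cox6b2 at most 0.557 CPM and Ndufa4l2, induced by hypoxia in other cells, at most 0.283 CPM. Their widely expressed partners were found in every library of CD8+ TILs, from 17.1 to 53.9 CPM for Cox6b1, 20.8 to 30.4 CPM for Cox7a2, 33.1 to 45.4 CPM for Cox6a1 and 87.4 to 140.4 CPM for Cox4i1. Of the genes that encode the c-ring protein of complex V, Atp5g3 had a median over 16 libraries of 18.6 CPM per kb, Atp5g2 of 10.2 and Atp5g1 of 2.91.

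CD8+ TILs held more transcript of the chain than CD4+ TILs, in both genotypes and in most complexes. The members took 0.515 to 0.621% of all counts in the 8 CD8+ libraries and 0.301 to 0.465% in the 8 CD4+ libraries. Summed over its 17 genes, complex V stood at 1507, 1556, 1462 and 1474 CPM in WT CD4+ replicates 1 to 4, at 1352, 1437, 1498 and 1269.7 CPM in Sirt2-/- CD4+, at 1884, 2333, 2064 and 2399 CPM in WT CD8+ and at 2132, 2269, 2291 and 2155 CPM in Sirt2-/- CD8+ replicates. Every CD8+ library was above every CD4+ library. Complex IV summed to 696, 669.7, 641 and 584 CPM in WT CD4+, to 631, 659.8, 588 and 531 CPM in Sirt2-/- CD4+, to 779, 918, 857 and 962 CPM in WT CD8+ and to 927, 1033, 962 and 863 CPM in Sirt2-/- CD8+ TILs, again without overlap of the cell types. The sums of complex I (884 to 1241 CPM in CD4+ and 1353 to 1609.9 CPM in CD8+ TILs) and of complex III (261 to 429 and 473 to 572 CPM) did not overlap between cell types either.

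**Figure D1:**
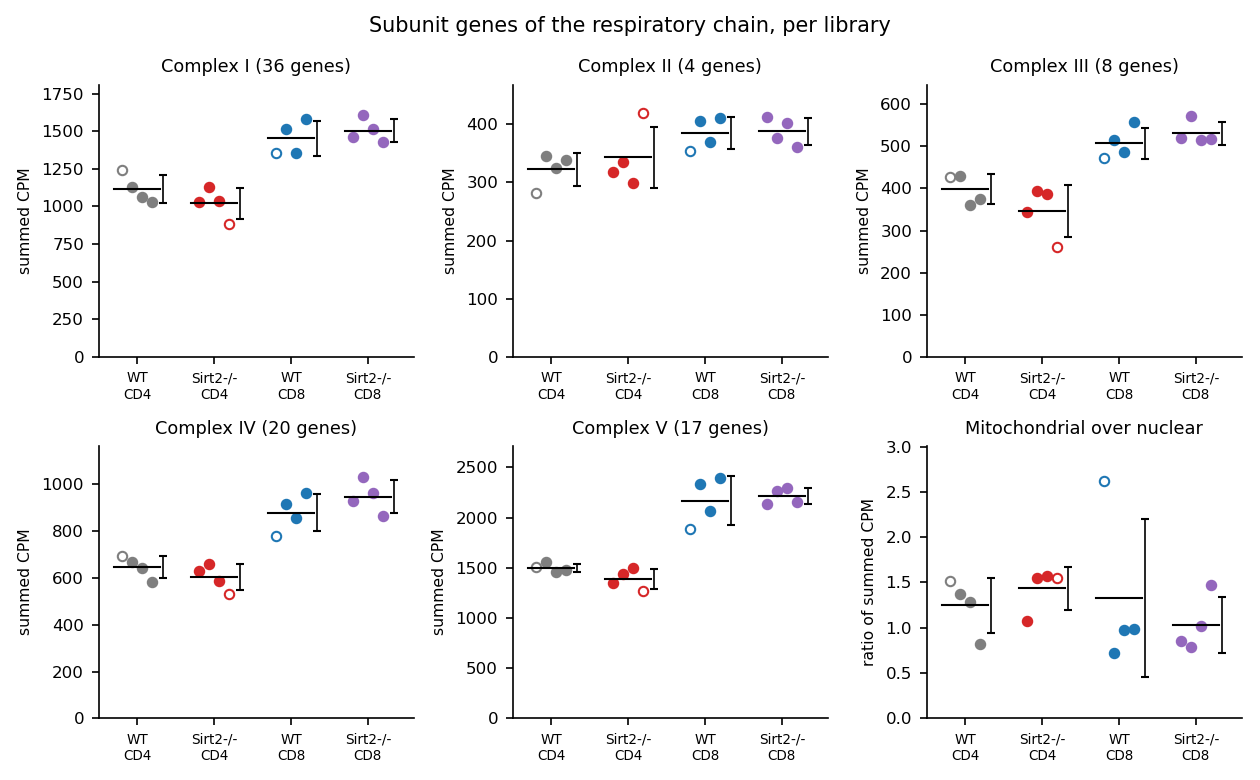
Summed CPM of the subunit genes of each complex in every library, and the ratio of the summed CPM of the 13 mitochondrial-encoded subunits to that of the nuclear-encoded ones. Points are libraries, open circles the 3 with few genes detected, lines the mean and bars the SD of 4 libraries. The CD8+ sums of complexes I, III, IV and V lie above every CD4+ sum, whereas complex II and the ratio overlap.

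By summed CPM, complex II differed least. It summed to 282, 345, 324 and 339 CPM in WT CD4+ replicates 1 to 4, 318, 335, 299 and 419 CPM in Sirt2-/- CD4+, 354, 405, 370.2 and 410.0 CPM in WT CD8+ and 412, 376, 402 and 360.3 CPM in Sirt2-/- CD8+ replicates. The library at 419 CPM is the one with the fewest genes detected, and without the 3 libraries the cell types did not overlap. As ratios of CD8+ to CD4+ means, complex V stood at 1.45 in WT and 1.59 in Sirt2-/- TILs, complex IV at 1.36 and 1.57, complex I at 1.30 and 1.47, complex III at 1.28 and 1.53 and complex II at 1.19 and 1.13. Over the 13 libraries these ratios were 1.51 and 1.55, 1.44 and 1.51, 1.38 and 1.41, 1.34 and 1.41, and 1.18 and 1.22 in the same order. Complex V stayed the highest and complex II the lowest of the 5 in each of these settings. This order is that of the sums, and Sdha alone made up 56.4 to 72.3% of the complex II sum. By the median log2 fold change of its members, complex II was not the lowest in Sirt2-/- TILs with the 13 libraries. Within a library, where the scaling cancels, the ratio of complex V to complex II was 4.35 to 5.35 in WT CD4+, 3.03 to 5.01 in Sirt2-/- CD4+, 5.31 to 5.85 in WT CD8+ and 5.18 to 6.04 in Sirt2-/- CD8+ TILs. WT CD4+ replicate 1 (5.35) is the CD4+ library that lies within the CD8+ range. The ratios of complexes I, III and IV to complex II overlapped between cell types too. WT CD4+ replicate 1 stood at 4.40 for complex I (3.55 to 4.28 in CD8+ libraries) and at 2.47 for complex IV (2.20 to 2.75). For complex III, WT CD4+ replicate 1 (1.519) and Sirt2-/- CD4+ replicate 3 (1.295), which is among the 13, lay within the CD8+ range (1.264 to 1.523). In bulk RNA, fewer cells of a type and less RNA per cell cannot be told apart.

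In WT mice, 10 members were higher and 1 was lower in CD8+ than in CD4+ TILs by edgeR's quasi-likelihood test at a Benjamini–Hochberg adjusted p below 0.05 over all genes. Of all 14892 genes tested, 4.89% were called higher and 6.96% lower. edgeR's filter on low counts kept 89 members, and the 9 it dropped are the second Atp5o row and the tissue isoforms Cox4i2, Cox6a2, Cox6b2, Cox7a1, Cox7b2, Cox8b, Cox8c and Ndufa4l2. The median log2 fold change of the 89 was 0.40, beside -0.02 over all genes, and 80 of them were above 0. The 10 called higher were spread over complex V (Atp5b, Atp5c1, Atp5h and Atp5f1), complex I (Ndufa9, Ndufa10, Ndufa13 and Ndufb10) and complex IV (Cox5a and Cox5b).

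Atp5b, the catalytic beta subunit of ATP synthase, had 297, 299, 264 and 298 CPM in WT CD4+ replicates 1 to 4 and 371, 531, 454 and 544 CPM in WT CD8+ replicates. In Sirt2-/- TILs it had 263, 259, 270.2 and 279.6 CPM in CD4+ and 445, 442, 469.7 and 462 CPM in CD8+ replicates. All 8 CD8+ values lay above all 8 CD4+ values, and it was the member called in both genotypes with all libraries, with a log2 fold change of 0.64 (standard error 0.13, edgeR adjusted p = 0.0091) in WT and a log2 fold change of 0.75 (standard error 0.09, edgeR adjusted p = 0.0064) in Sirt2-/- TILs. Atp5c1 encodes the gamma subunit, the shaft that turns inside the catalytic head. It had 70.7, 122, 106 and 96.1 CPM in WT CD4+ and 168, 172, 174 and 168 CPM in WT CD8+ replicates, with a log2 fold change of 0.71 (standard error 0.17, edgeR adjusted p = 0.019). The groups did not overlap, and WT CD4+ replicate 1 was the lowest.

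The other 2 members of complex V that passed belong to the stator, which holds the catalytic head in place. Atp5h had 183, 208, 184 and 189 CPM in WT CD4+ and 248, 275, 255 and 302 CPM in WT CD8+ replicates, with a log2 fold change of 0.43 (standard error 0.11, edgeR adjusted p = 0.032). Atp5f1, the b subunit, had 92.2, 101, 84.6 and 76.8 and 96.3, 171, 162 and 160.2 CPM, with a log2 fold change of 0.66 (standard error 0.18, edgeR adjusted p = 0.038). Here WT CD8+ replicate 1 lay at 96.3 CPM, within the CD4+ range, and the other 3 CD8+ libraries above it. Of the windows of 100 bases in the transcripts of Atp5h and Atp5f1, 29.5% and 7.38% also occur in other annotated genes, among them a pseudogene of Atp5h, so their levels depend on how shared reads were counted. Such windows were found in 22 of the 98 members, most in the second Atp5o row (77.03%, with no count in any library), Atp5l (61.3%) and Ndufb4 (33.4%), and make up 8.09% of Cox5b.

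In complex IV, the members that passed in WT TILs were Cox5a and Cox5b. Cox5b had 51.04, 58.00, 49.9 and 39.3 CPM in WT CD4+ and 98.9, 87.7, 79.4 and 86.5 CPM in WT CD8+ replicates, without overlap, with a log2 fold change of 0.76 (standard error 0.16, edgeR adjusted p = 0.0098). Cox5a had 32.4, 29.6, 22.4 and 15.5 and 49.7, 52.7, 43.9 and 54.97 CPM, again without overlap, with a log2 fold change of 0.95 (standard error 0.23, edgeR adjusted p = 0.021). In Sirt2-/- TILs, Cox5a had 20.2, 30.9, 22.6 and 17.3 CPM in CD4+ and 49.1, 49.5, 55.8 and 44.2 CPM in CD8+ replicates and Cox5b had 52.4, 52.9, 48.7 and 71.8 and 80.4, 104, 88.5 and 82.9 CPM. For both genes all 8 CD8+ values were above all 8 CD4+ values, although neither passed in Sirt2-/- TILs with all libraries.

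The 4 members of complex I that passed are supernumerary subunits, which surround its catalytic core. Ndufa9 had 37.8, 42.6, 37.7 and 32.8 CPM in WT CD4+ and 79.2, 67.1, 53.4 and 65.6 CPM in WT CD8+ replicates, with a log2 fold change of 0.74 (standard error 0.17, edgeR adjusted p = 0.016). Ndufa10 had 37.4, 63.8, 53.8 and 42.7 and 71.1, 105, 87.6 and 96.6 CPM, with a log2 fold change of 0.79 (standard error 0.20, edgeR adjusted p = 0.028). Neither gene overlapped between the WT groups, but Sirt2-/- CD4+ replicate 4 stood at 72.00 CPM for Ndufa9 and 95.2 CPM for Ndufa10, amid the CD8+ libraries. Ndufa13 had 54.5, 63.1, 55.4 and 64.3 CPM in WT CD4+ and 90.7, 84.7, 85.1 and 91.7 CPM in WT CD8+ replicates, with a log2 fold change of 0.50 (standard error 0.13, edgeR adjusted p = 0.033). Ndufb10 had 33.3, 50.2, 53.8 and 44.3 and 70.5, 75.3, 70.3 and 85.3 CPM, with a log2 fold change of 0.65 (standard error 0.19, edgeR adjusted p = 0.042). For these last genes all CD8+ libraries of both genotypes lay above all CD4+ libraries.

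The 1 member called lower in WT CD8+ TILs was Sdhaf1, which encodes the factor that helps place iron-sulfur clusters in the Sdhb subunit of complex II. It had 41.8, 19.99, 24.98 and 24.9 CPM in WT CD4+ replicates 1 to 4 and 16.3, 13.9, 12.7 and 16.9 CPM in WT CD8+ replicates, with a log2 fold change of -0.96 (standard error 0.26, edgeR adjusted p = 0.037). In Sirt2-/- TILs it had 29.9, 17.6, 21.4 and 0 CPM in CD4+ and 17.3, 13.7, 12.7 and 15.7 CPM in CD8+ replicates. The 0 of Sirt2-/- CD4+ replicate 4 allows up to 3 counts in that library. Apart from this 0, every CD4+ value was above every CD8+ value. Sdhaf1 was the only member of 90 for which that held over the 13 libraries, beside 1450 of 17270 genes.

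**Figure D2:**
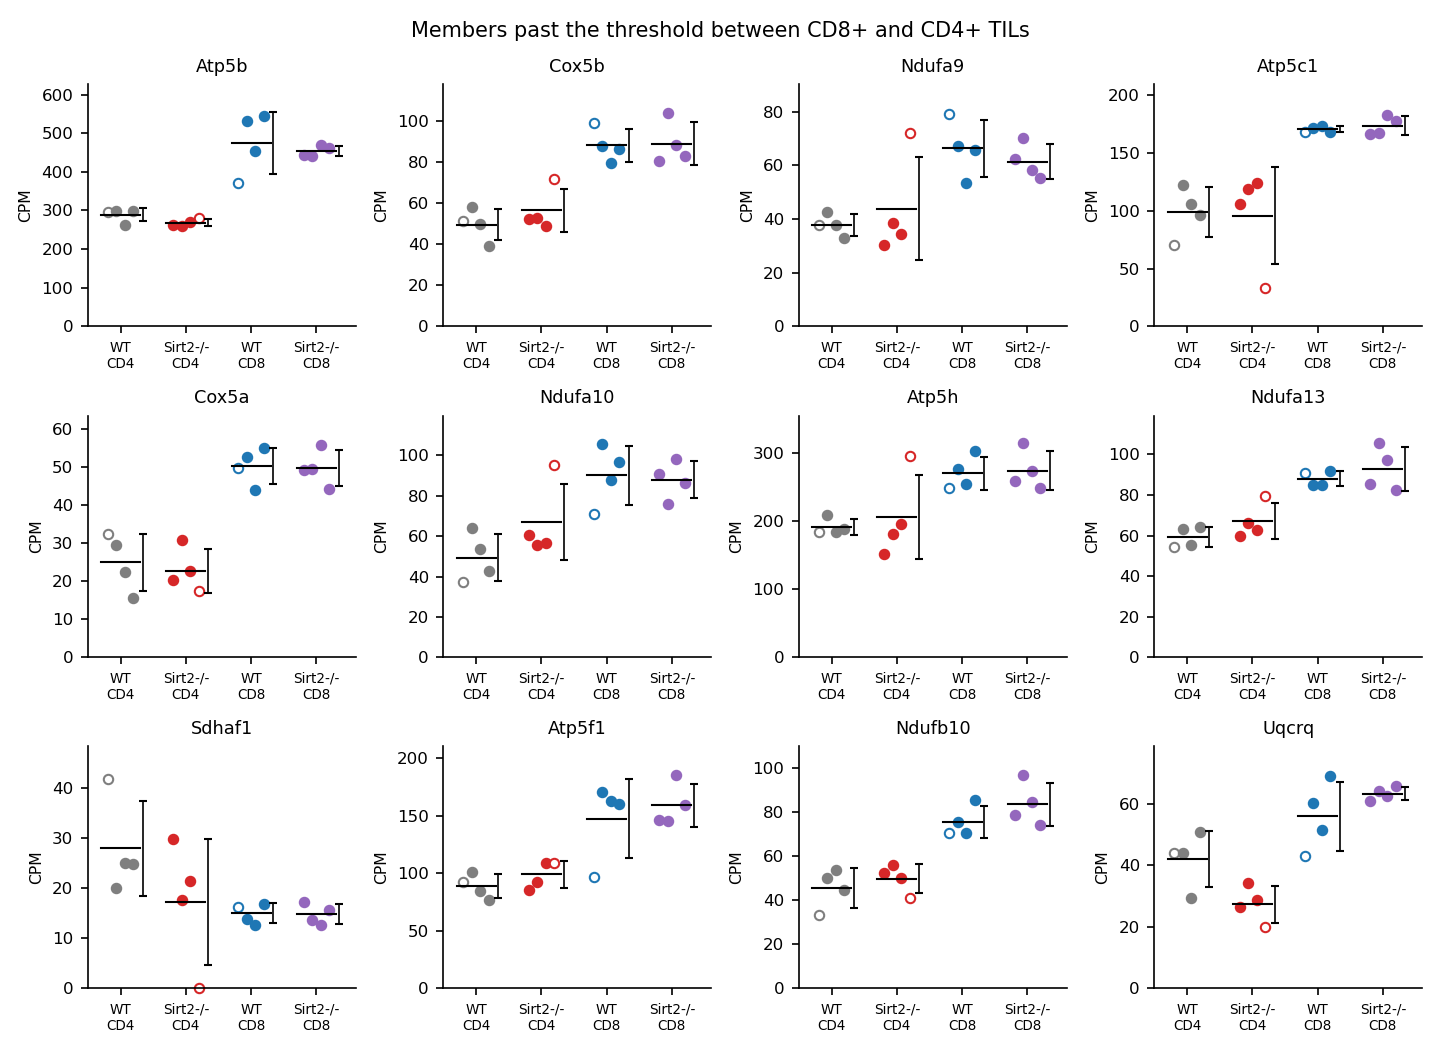
CPM of members called between CD8+ and CD4+ TILs, in each of the 16 libraries. Points are libraries, open circles the 3 with few genes detected, lines the mean and bars the SD of 4 libraries. Atp5b and Cox5b lie higher in all CD8+ than in all CD4+ libraries, and Sdhaf1 lies lower in CD8+ libraries except against 1 CD4+ library at 0.

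To show the sequence before members that moved in each direction, the 250 bases upstream of the RefSeq start (GRCm38.p6) are given for 5 of them. They are on the strand of the gene and 5′ to 3′. The RefSeq start lies 1520 bases from the GENCODE start for Sdhaf1 and 538 bases for Ndufa13. The windows of these genes therefore lie inside the gene as annotated in GENCODE. Capitals mark the letters of motifs that are known from promoters of respiratory chain genes.
Atp5b (chr10:128083057-128083306, plus strand): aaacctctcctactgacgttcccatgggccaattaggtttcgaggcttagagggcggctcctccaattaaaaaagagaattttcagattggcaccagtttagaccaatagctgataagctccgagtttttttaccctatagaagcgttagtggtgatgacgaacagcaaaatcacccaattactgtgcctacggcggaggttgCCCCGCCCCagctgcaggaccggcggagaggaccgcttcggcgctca
Atp5h (chr11:115419920-115420169, minus strand): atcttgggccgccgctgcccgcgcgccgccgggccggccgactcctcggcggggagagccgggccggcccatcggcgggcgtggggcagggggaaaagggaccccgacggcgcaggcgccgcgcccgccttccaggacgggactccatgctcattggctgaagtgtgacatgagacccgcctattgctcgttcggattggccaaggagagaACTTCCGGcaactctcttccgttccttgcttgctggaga
Ndufa13 (chr8:69902021-69902270, minus strand): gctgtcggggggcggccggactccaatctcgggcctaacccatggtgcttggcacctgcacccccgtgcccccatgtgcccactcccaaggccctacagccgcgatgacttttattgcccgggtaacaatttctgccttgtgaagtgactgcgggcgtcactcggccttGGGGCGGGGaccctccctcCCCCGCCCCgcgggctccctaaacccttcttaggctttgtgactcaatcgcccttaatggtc
Cox5b (chr1:36691237-36691486, plus strand): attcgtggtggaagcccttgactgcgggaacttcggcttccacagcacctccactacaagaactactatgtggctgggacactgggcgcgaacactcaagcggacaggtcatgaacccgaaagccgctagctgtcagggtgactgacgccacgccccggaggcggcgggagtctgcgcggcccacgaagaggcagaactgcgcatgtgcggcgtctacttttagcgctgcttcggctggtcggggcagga
Sdhaf1 (chr7:30322376-30322625, minus strand): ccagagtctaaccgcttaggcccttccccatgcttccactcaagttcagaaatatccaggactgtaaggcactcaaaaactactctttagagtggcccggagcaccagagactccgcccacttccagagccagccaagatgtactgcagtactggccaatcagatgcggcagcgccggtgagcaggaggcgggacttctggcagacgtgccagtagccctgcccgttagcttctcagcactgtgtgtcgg
The capitals are 1 SP1 motif on the reverse strand in Atp5b, 1 ETS motif on the reverse strand in Atp5h and an SP1 motif on each strand in Ndufa13, and the windows of Cox5b and Sdhaf1 hold none of the letters searched.

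The letters of 4 motifs were searched on both strands from 250 bases before to 50 bases after the start, namely GCATGCGC for NRF1, CCGGAAGT for the ETS factor GABPA, AAGATGGC for YY1 and GGGGCGGGG for SP1. A RefSeq window was found for 80 of the 98 members. NRF1 letters were in 12 members (15.0%, against 3.05% of 27025 genes in the table), in Uqcrc1, Sdhb, Ndufaf4 and Cox6a1 among others. YY1 letters were in 11 members (13.8% against 3.19%), ETS letters in 5 (6.25% against 4.31%) and SP1 letters in 13 (16.2% against 12.9%). At least 1 of them was in 34 members (42.5% against 20.9%). The member windows were also richer in G and C (median 58.7%) than all windows (52.7%), which bears on how often GC-rich letters are met.

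In Sirt2-/- mice, 2 members were higher in CD8+ than in CD4+ TILs, Atp5b and Uqcrq, and none was lower. Neither was called with the replicate number as a block. Of all 15787 genes tested, 0.918% were called higher and 1.32% lower. Uqcrq encodes a small subunit of complex III near the ubiquinone site. It had 26.5, 34.2, 28.6 and 19.8 CPM in Sirt2-/- CD4+ and 60.9, 64.3, 62.6 and 65.7 CPM in Sirt2-/- CD8+ replicates, with a log2 fold change of 1.20 (standard error 0.23, edgeR adjusted p = 0.037). In WT TILs it had 44.1, 43.96, 29.4 and 51.00 CPM in CD4+ and 43.04, 60.2, 51.5 and 69.1 CPM in CD8+ replicates, which overlap. The median log2 fold change of the 89 tested members was 0.69 in Sirt2-/- TILs, beside 0.16 over all genes, and 85 of them were above 0.

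Counted by libraries that do not overlap, 24 of the 90 members detected well enough were higher in every WT CD8+ than in every WT CD4+ library (11.2% of 17270 genes), and 55 were higher in every Sirt2-/- CD8+ than in every Sirt2-/- CD4+ library (15.1% of genes). In Sirt2-/- CD4+ replicate 4, 43 members were at 0. For those the count rests on the other Sirt2-/- CD4+ libraries, so the 55 and the 24 were not measured alike. Over all 16 libraries, 15 members were higher in every CD8+ library (4.97% of genes). They are Ndufa13, Ndufab1, Ndufb7 and Ndufb10 of complex I, the complex II assembly factor Sdhaf4, Uqcr10 and Uqcrb of complex III, Ndufa4, Cox5a and Cox5b of complex IV and Atp5b, Atp5c1, Atp5g3, Atp5mpl and Atp5o of complex V. Of them, Ndufab1, Ndufb7, Ndufa4 and Atp5o were at 0 in 1 library and Sdhaf4 in 2. Over the 13 libraries there were 45 such members, beside 12.1% of genes.

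How many members were called rested on single libraries. Without the 3 libraries with few genes detected, 40 members were higher and 1 lower in WT CD8+ TILs, beside 14.9% and 13.1% of all genes, and in Sirt2-/- CD8+ TILs 54 members were called higher and 1 was called lower, beside 13.8% and 11.6% of all genes. The member medians were then 0.51 and 0.58, and those of all genes were near 0 (-0.03 and -0.004). Leaving out Sirt2-/- CD4+ replicate 4 alone took the Sirt2-/- count from 2 to 54, and leaving out WT CD4+ replicate 1 alone took the WT count from 10 to 23. In the other direction, the WT count fell to 2 without WT CD8+ replicate 4, to 4 without WT CD8+ replicate 2 or 3 and to 5 without WT CD4+ replicate 3. Atp5b and Cox5b were called in WT TILs in each of 9 alternative fits and without each library in turn, whereas Sdhaf1 was called in 6 of 9 fits and in 2 of 8 sets without 1 library. Why the 3 libraries differ was not tested.

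**Figure D3:**
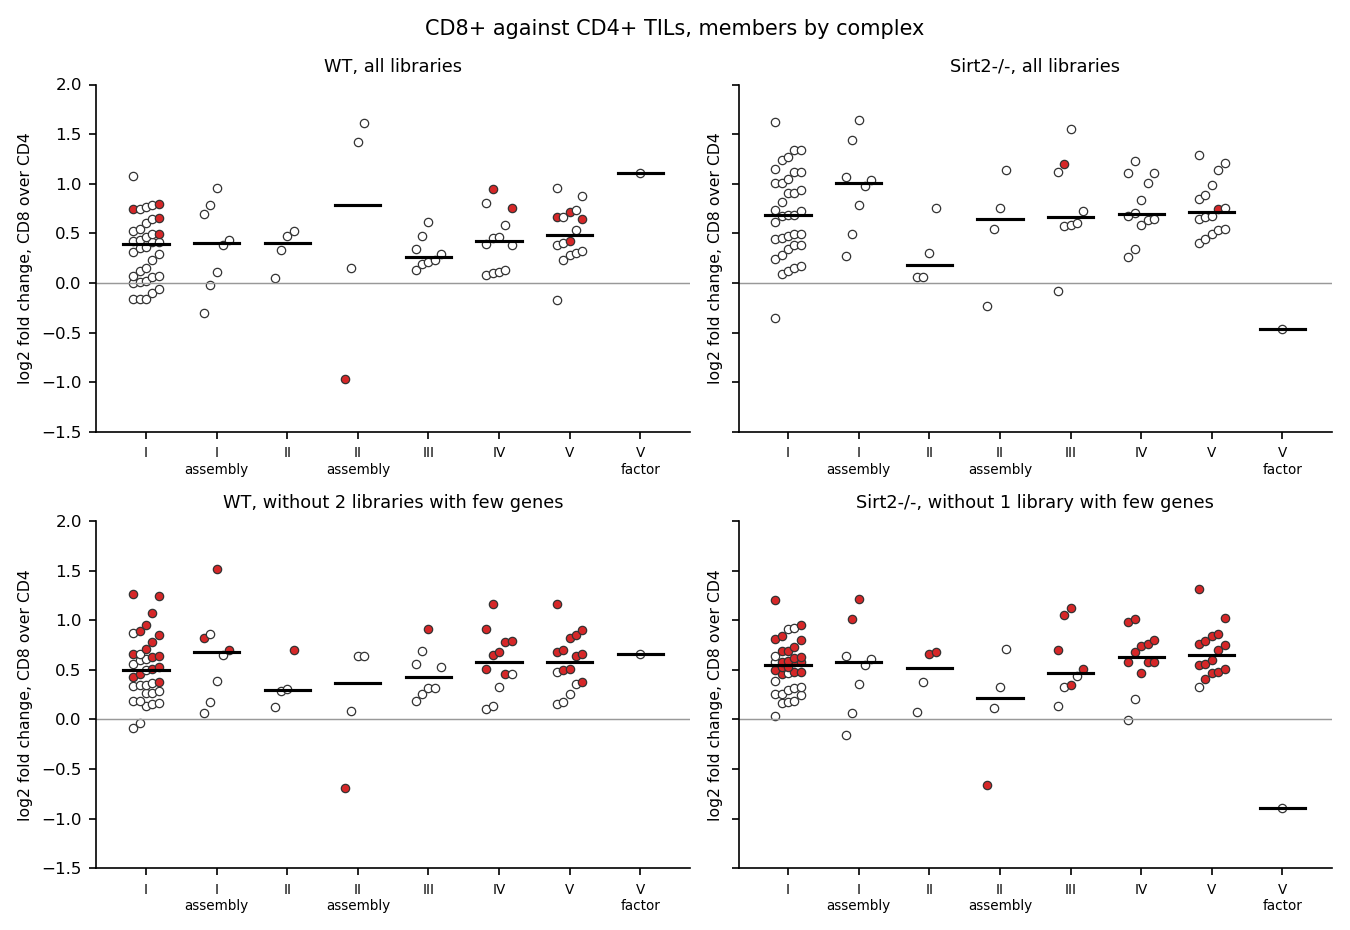
Log2 fold change of CD8+ over CD4+ TILs for each tested member, by complex, with all libraries and without those with few genes detected. Points are genes, red those at an adjusted p below 0.05 by edgeR, and horizontal bars the median of the complex. Most points lie above 0, and the red ones rise from 11 to 41 in WT and from 2 to 55 in Sirt2-/- TILs without these libraries.

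With the 13 libraries, the 36 members called higher in both genotypes made up 90.0% of the 40 WT calls and 66.7% of the 54 Sirt2-/- calls. Of all genes tested in both, 11.4% were called higher in both, and 0.774% with all libraries, when Atp5b was the 1 member. By complex, 15 of 36 members of complex I were higher in both genotypes, 1 of 8 complex I assembly factors, 0 of 4 members of complex II, 0 of 4 complex II assembly factors, 1 of 8 members of complex III, 8 of 12 of complex IV and 11 of 16 of complex V. Over the 5 complexes, the median log2 fold change in WT TILs was 0.57 for V, 0.58 for IV, 0.50 for I, 0.43 for III and 0.30 for II, and in Sirt2-/- TILs 0.65, 0.63, 0.55, 0.47 and 0.52.

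The largest difference of any member with the 13 libraries in WT TILs was that of Ndufaf4, a complex I assembly factor. It had 23.7, 13.6, 11.1 and 12.3 CPM in WT CD4+, 15.6, 12.2, 11.1 and 0 CPM in Sirt2-/- CD4+, 16.03, 31.7, 35.9 and 38.9 CPM in WT CD8+ and 30.2, 31.2, 30.1 and 31.97 CPM in Sirt2-/- CD8+ replicates. Away from WT CD4+ replicate 1 and WT CD8+ replicate 1, the CD4+ libraries stayed at or below 15.6 CPM and the CD8+ libraries at or above 30.1 CPM. Without the 3 libraries its log2 fold change was 1.52 in WT (standard error 0.17, adjusted p = 9.2e-05) and 1.22 in Sirt2-/- TILs (standard error 0.15, adjusted p = 2.7e-04). With all libraries it was 0.95 and 1.64, and neither passed.

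Atp5g1 showed the largest difference of complex V and the largest of any member in Sirt2-/- TILs over the 13 libraries. It had 8.31, 8.26, 8.78 and 9.88 CPM in WT CD4+, 7.22, 8.67, 6.55 and 33.5 CPM in Sirt2-/- CD4+, 11.6, 20.3, 18.4 and 21.98 CPM in WT CD8+ and 19.2, 22.3, 17.00 and 17.8 CPM in Sirt2-/- CD8+ replicates. Sirt2-/- CD4+ replicate 4 was above every CD8+ library. Without the 3 libraries its log2 fold change was 1.16 in WT (adjusted p = 0.001) and 1.32 in Sirt2-/- TILs (adjusted p = 5.0e-04), and Atp5g3, which encodes the same mature c-ring protein, stood at 0.70 (adjusted p = 0.0033) and 0.76 (adjusted p = 5.6e-04). Atp5g2, the remaining gene for it, was not called in either genotype (0.36 and 0.33).

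**Figure D4:**
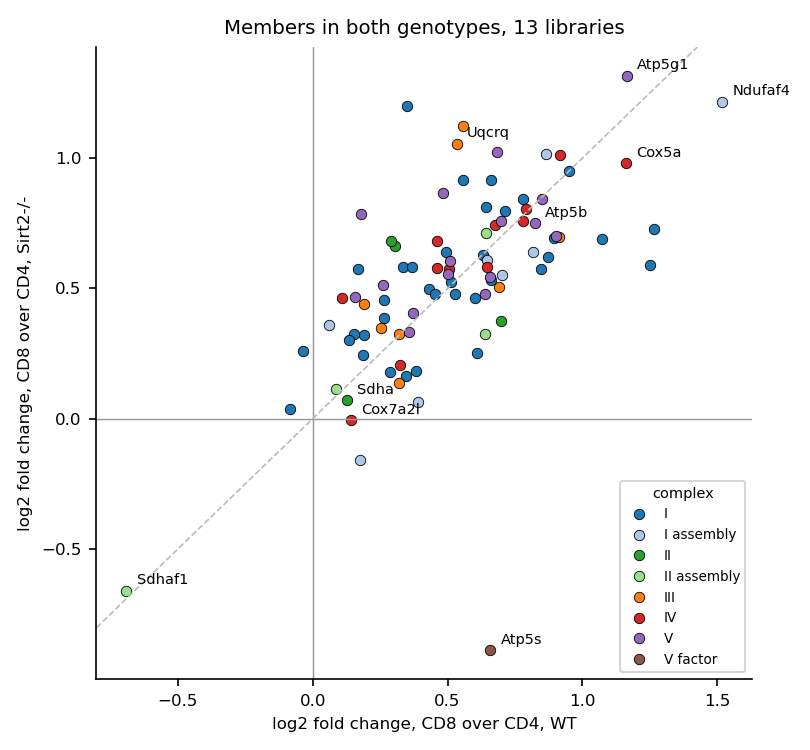
Log2 fold change of CD8+ over CD4+ TILs for each member in WT (horizontal) and Sirt2-/- mice (vertical), in the 13 libraries left without the 3 with few genes detected. Points are genes, colored by complex, and the dashed line marks equal change. Ndufaf4, Atp5g1 and Cox5a lie far above 0 in both genotypes, and Sdhaf1 below 0.

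Of the core subunits of complexes I and III named here, Ndufv1, Ndufv2 and Ndufs8 were called higher in both genotypes with the 13 libraries. Ndufv2 stood at a log2 fold change of 0.66 in WT and 0.53 in Sirt2-/- TILs, and Ndufs8 at 0.90 and 0.69. Ndufs3 and Ndufs7 were called in neither, and core and other subunits were not compared by a test. Ndufs1, which carries iron-sulfur clusters of complex I, had 32.7, 61.8, 62.8 and 67.6 CPM in WT CD4+ and 64.8, 84.5, 79.97 and 86.9 CPM in WT CD8+ replicates and was called with the 13 libraries in WT (0.38, edgeR adjusted p = 0.023) but not in Sirt2-/- TILs (0.18, edgeR adjusted p = 0.21). Ndufv1, which binds NADH, was called in both (0.53 and 0.48), and the supernumerary subunit Ndufb9 (0.61 and 0.25) in neither. In complex III, the Rieske iron-sulfur protein Uqcrfs1 (0.32 and 0.33) and the core protein Uqcrc2 (0.32 and 0.14) were not called, and Uqcrc1 (0.25 and 0.35) was called in Sirt2-/- TILs alone.

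In complex IV, Cox6c was called in both genotypes with the 13 libraries (0.65 and 0.58) and Cox4i1 in Sirt2-/- TILs alone (0.11 and 0.46). Of the expressed isoforms, Cox7a2 (0.68 and 0.74), Cox6b1 (0.50 and 0.57), Cox7b (0.92 and 1.01), Cox8a (0.46 and 0.58) and Ndufa4 (0.79 and 0.80) were called in both, and Cox6a1 in Sirt2-/- TILs alone (0.46 and 0.68). Cox7b, which stabilizes the assembled oxidase, had 134, 72.2, 87.04 and 30.03 CPM in WT CD4+, 61.95, 61.03, 62.6 and 132 CPM in Sirt2-/- CD4+, 105, 117, 106 and 136 CPM in WT CD8+ and 123, 143, 134 and 111 CPM in Sirt2-/- CD8+ replicates. WT CD4+ replicate 1 and Sirt2-/- CD4+ replicate 4 were as high as CD8+ libraries, and the other CD4+ libraries lay below all of them. In complex V the alpha subunit Atp5a1, which alternates with Atp5b in the catalytic head, was called in both genotypes with a smaller estimate than Atp5b (0.37 and 0.41, against 0.82 and 0.75), and the difference between the genes was not tested.

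Sdha, which oxidizes succinate, was nearly level across the groups. It had 204, 229, 217 and 221 CPM in WT CD4+, 219.9, 231, 204 and 236 CPM in Sirt2-/- CD4+, 216, 253, 228 and 251 CPM in WT CD8+ and 258, 228, 242 and 211 CPM in Sirt2-/- CD8+ replicates. The groups overlapped, and its log2 fold change was 0.05 in WT (standard error 0.11) and 0.06 in Sirt2-/- TILs (standard error 0.11), neither past the threshold. Sdha made up 56.4 to 72.3% of the complex II sum over the libraries. The other members of complex II, the iron-sulfur protein Sdhb and the membrane anchors Sdhc and Sdhd, stood with the 13 libraries at 0.30, 0.29 and 0.70 in WT and at 0.66, 0.68 and 0.37 in Sirt2-/- TILs, of which Sdhd passed in WT and Sdhb and Sdhc in Sirt2-/- TILs. Cox7a2l, listed here with complex IV, was likewise not called, at 0.14 and -0.005 with the 13 libraries. Atp5s stood at 1.23, 1.35, 1.03 and 2.10 CPM in WT CD4+ and 5.10, 3.80, 3.93 and 0 CPM in Sirt2-/- CD4+ replicates, against 5.84, 1.90, 2.47 and 2.71 and 1.93, 1.95, 3.42 and 2.15 CPM in CD8+ replicates, and was not called in any comparison.

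Within CD8+ TILs, no member passed the test between Sirt2-/- and WT mice. edgeR called 0 of 89 tested members, and 0 members had an unadjusted p below 0.05. Over all 15302 genes, 0.00654% were called and 3.78% had an unadjusted p below 0.05, and DESeq2 and limma-voom called 0 members too. The median log2 fold change of the members was 0.05, beside 0.01 over all genes, with 57 of 89 above 0. The ratio of Sirt2-/- to WT means of the summed CPM was 1.04 for complex I, 1.01 for II, 1.05 for III, 1.08 for IV and 1.02 for V. The median standard error was 0.149, and for 71 of 89 members the range of 2 standard errors around the estimate stayed within a 1.5-fold change in either direction, for 83 within 2-fold.

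The 3 members nearest to the threshold were Ndufa6 of complex I, the assembly factor Ndufaf8 and the complex II assembly factor Sdhaf3. Ndufa6 had 47.8, 59.3, 55.5 and 64.6 CPM in WT CD8+ and 76.03, 91.5, 61.02 and 58.5 CPM in Sirt2-/- CD8+ replicates, with a log2 fold change of 0.34 (standard error 0.15). Ndufaf8 had 22.9, 15.7, 16.4 and 15.9 and 13.9, 12.8, 11.7 and 16.2 CPM (-0.38), and Sdhaf3 had 20.1, 6.40, 7.28 and 4.85 and 4.29, 6.93, 6.42 and 5.03 CPM (-0.77). All 3 overlapped between genotypes, and for Ndufaf8 and Sdhaf3 the highest value was that of WT CD8+ replicate 1. The member without overlap was Sdhaf2, the factor that attaches flavin to Sdha, with 29.98, 34.6, 35.4 and 36.4 CPM in WT and 36.8, 37.8, 37.2 and 39.96 CPM in Sirt2-/- CD8+ replicates. It is 1 of 90 members, beside 3.03% of genes without overlap in either direction.

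Within CD4+ TILs, edgeR likewise called 0 of 89 members, with 0 members at an unadjusted p below 0.05. Of all 15070 genes, 0.0% were called and 1.26% had an unadjusted p below 0.05, and DESeq2 and limma-voom called 0 members. The median log2 fold change was -0.19, beside -0.11 over all genes, and -0.05 without WT replicate 1 and Sirt2-/- replicate 4. The ratio of means was 0.914 for complex I, 1.06 for II, 0.872 for III, 0.930 for IV and 0.926 for V, and 0.991, 0.945, 0.969, 0.991 and 0.954 without these libraries. Differences were measured less closely than in CD8+ TILs, as the coefficient of variation of a member had a median of 0.298 in WT and 0.618 in Sirt2-/- CD4+ TILs (0.201 and 0.126 without the 2 libraries) against 0.159 and 0.108 in CD8+ TILs. The median standard error was 0.758, and the range of 2 standard errors stayed within 1.5-fold for 7 of 89 members and within 2-fold for 26, or for 46 and 73 without the 2 libraries, when 4 members (beside 4.35% of all genes) had an unadjusted p below 0.05 and none was called.

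With all libraries, Atp5j2, the f subunit of complex V, and Ndufc1 of complex I were among the members nearest to the threshold in CD4+ TILs. Atp5j2 had 91.2, 43.8, 47.2 and 48.5 CPM in WT and 39.6, 39.9, 42.8 and 26.6 CPM in Sirt2-/- CD4+ replicates (-0.62, standard error 0.32). Ndufc1 had 9.41, 15.1, 8.16 and 5.58 and 12.2, 14.4, 14.3 and 66.5 CPM (1.48), with 1 library far above the other 7. Atp5j2 did not overlap between genotypes, nor did Uqcr11 of complex III (25.1, 12.6, 13.2 and 19.8 CPM in WT and 11.04, 11.5, 7.63 and 0 CPM in Sirt2-/- replicates) or Ndufa1 of complex I (21.1, 16.7, 15.1 and 9.69 and 6.31, 9.07, 5.76 and 0 CPM). These 3 of 90 members compare with 2.8% of all genes. Without WT replicate 1 and Sirt2-/- replicate 4, Atp5j2 and Ndufc1 were no longer among the nearest. The members at an unadjusted p below 0.05 by edgeR were then Ndufa1 (log2 fold change -0.97), Atp5s (1.53), Uqcrq (-0.47) and Uqcr11 (-0.59).

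**Figure D5:**
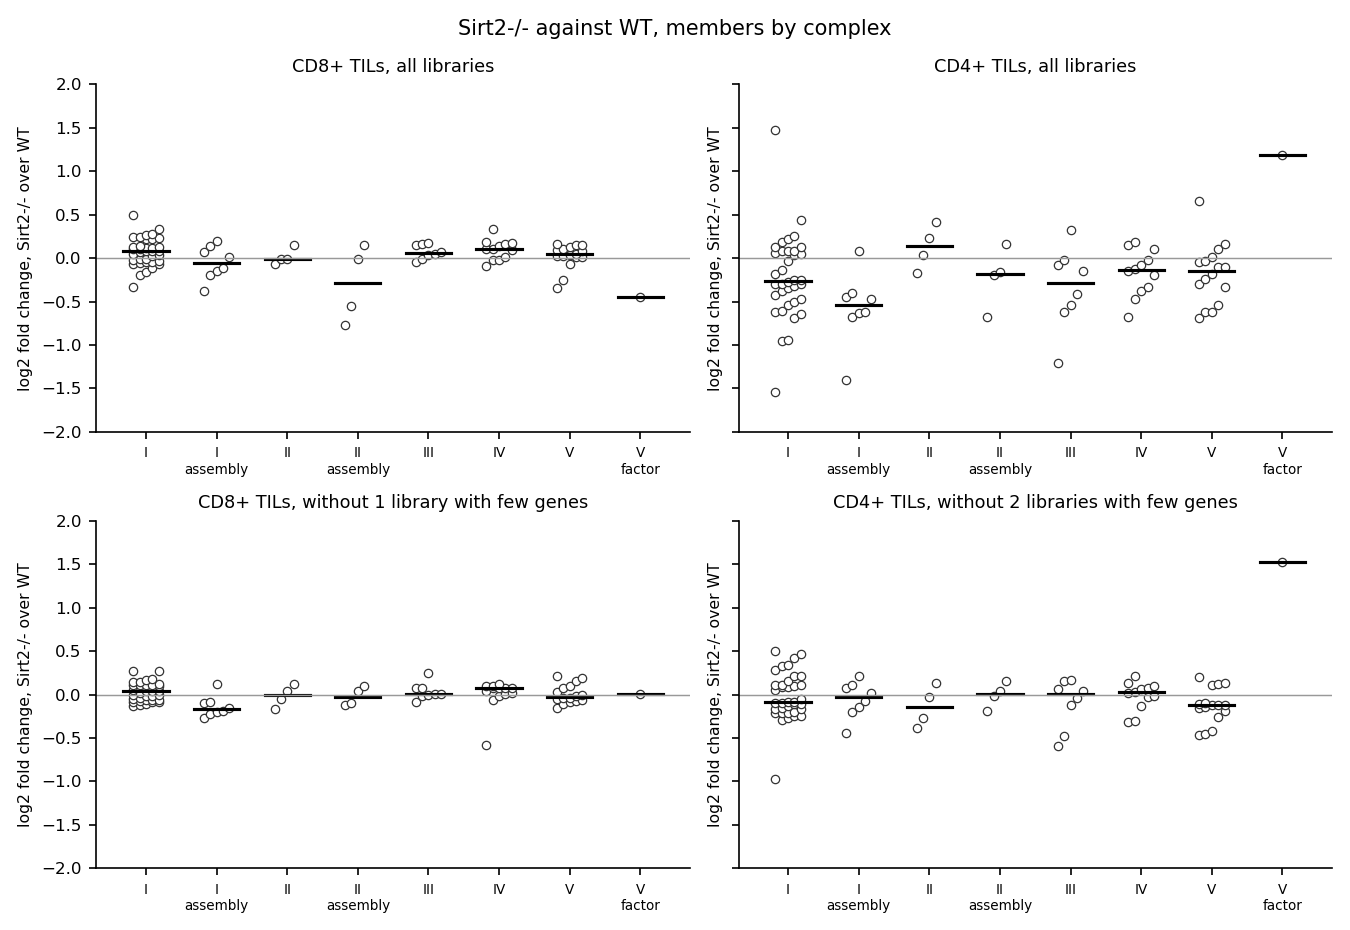
Log2 fold change of Sirt2-/- over WT TILs for each tested member, by complex, in CD8+ and CD4+ TILs, with all libraries and without those with few genes detected. Points are genes and horizontal bars the median of the complex. No member passed the test, and points spread more widely in CD4+ TILs with all libraries than in the other panels.

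The genotype effect was also compared between cell types in 1 model of 16 libraries. edgeR called 0 of 90 members and 0.0% of 17270 genes, and 2 members had an unadjusted p below 0.05, beside 1.98% of genes. They were Uqcrq, with a difference in log2 fold change of 0.81 (standard error 0.33), and Atp5j2, with 0.78 (standard error 0.34), and Ndufc1 followed with -1.51. The member median was 0.32, beside 0.14 over all genes. The difference between cell types seen in WT and in Sirt2-/- TILs was thus not shown to depend on genotype.

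The 13 mitochondrial-encoded subunits did not separate the cell types. They summed to 6294, 5681, 4957 and 3112 CPM in WT CD4+ replicates 1 to 4, 3958, 6113, 6000.1 and 5207 CPM in Sirt2-/- CD4+, 12715, 4129, 4985 and 5827 CPM in WT CD8+ and 4649, 4584, 5792 and 7863 CPM in Sirt2-/- CD8+ replicates. The cell types overlapped, and 0 of 11 tested genes were called by edgeR in any comparison with all libraries. As ratios of CD8+ to CD4+ means, the sum stood at 1.38 in WT and 1.08 in Sirt2-/- TILs, and at 1.09 and 1.07 with the 13 libraries, against 1.35 and 1.51, and 1.42 and 1.46, for all members. With all libraries, 10 of 11 genes were above 0 in WT (median log2 fold change 0.55, above the 0.40 of the members) and 9 of 11 in Sirt2-/- TILs (0.10), and with the 13 libraries 8 (0.32) and 7 (0.20). Their ratio to the nuclear-encoded subunits was 1.52, 1.38, 1.29 and 0.818 in WT CD4+, 1.08, 1.55, 1.57 and 1.55 in Sirt2-/- CD4+, 2.63, 0.726, 0.972 and 0.986 in WT CD8+ and 0.852, 0.782, 1.02 and 1.48 in Sirt2-/- CD8+ TILs. The CD8+ to CD4+ ratio of means of this ratio was 1.06 in WT and 0.719 in Sirt2-/- TILs with all libraries and 0.771 and 0.738 with the 13, so that its direction in WT turned without WT CD4+ replicate 1 and WT CD8+ replicate 1, and single libraries overlapped in each case. Without the 3 libraries, mt-Nd6, a complex I subunit and the 1 protein encoded on the light strand, was called lower in WT CD8+ TILs (log2 fold change -0.76, standard error 0.13, edgeR adjusted p = 0.0013).

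Other genes of the pathway were taken from hand-written lists. Cytochrome c (Cycs), which carries electrons between complexes III and IV, had 32.8, 34.9, 39.2 and 37.3 CPM in WT CD4+ and 55.1, 82.01, 72.9 and 81.1 CPM in WT CD8+ replicates and was higher in CD8+ TILs (log2 fold change 0.94, standard error 0.17, edgeR adjusted p = 0.0049). With the 13 libraries it was higher in both genotypes, as was Cyc1, the heme-bearing subunit of complex III. Of 41 tested assembly factors outside the member list, edgeR called 1 in WT (Lrpprc, which stabilizes mitochondrial mRNAs, log2 fold change 1.20, standard error 0.24, edgeR adjusted p = 0.0079) and 0 in Sirt2-/- TILs, beside the 4.89% and 0.918% of all genes called higher. With the 13 libraries it called 7 of 41 and 9 of 42, beside 14.9% and 13.8% of all genes, all of them higher in CD8+ TILs, and 6 of them in both genotypes (Lrpprc, Uqcc2, Bcs1l, Dmac1, Higd1a and Cox10).

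Of 16 regulators of mitochondrial genes, 15 were tested in WT TILs. There edgeR called Pprc1, a coactivator of the PGC-1 family, and Myc higher in CD8+ TILs, beside 4.89% of all genes. It called Hif1a and the mitochondrial DNA polymerase Polg lower, beside 6.96% of all genes. Pprc1 had 44.03, 40.2, 40.3 and 71.4 CPM in WT CD4+ and 106, 106, 96.6 and 113 CPM in WT CD8+ replicates (log2 fold change 1.03, standard error 0.20, edgeR adjusted p = 0.0063), without overlap. Hif1a, the hypoxia factor that directs cells away from respiration, had 398, 712, 596 and 546 and 126, 172, 160.2 and 168 CPM (log2 fold change -1.92, standard error 0.19, edgeR adjusted p = 1.0e-04). In Sirt2-/- TILs, Pprc1 was again higher (log2 fold change 1.34, standard error 0.19, edgeR adjusted p = 0.0093) and Hif1a again lower (log2 fold change -1.78, standard error 0.25, edgeR adjusted p = 0.011), and Hif1a had 433, 868, 775 and 870.2 CPM in CD4+ and 176, 209, 192 and 289 CPM in CD8+ replicates. Myc and Polg were not called in Sirt2-/- TILs with all libraries, where 0.918% of all genes were called higher and 1.32% lower. With the 13 libraries, Myc and Pprc1 were called higher and Hif1a, Gabpb1 and Polg lower in both genotypes. Ppargc1b was then called higher in Sirt2-/- TILs alone. Of all genes, 14.9% were called higher and 13.1% lower in WT, and 13.8% and 11.6% in Sirt2-/- TILs. Ppargc1a, which encodes PGC-1α, stayed at or below 1.13 CPM in every library. No gene of these lists was called between Sirt2-/- and WT mice in either cell type.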

How the data were processed

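TILs were profiled by stranded total RNA sequencing, 4 libraries per cell type and genotype. The authors deposited raw counts, 1 whole number per gene and library, with no scaling applied. The submitters' processing notes name STAR, HTSeq and mm10, with versions and counting settings not given in the sources used here. All 55450 gene identifiers match GENCODE mouse release 21. Totals of 28000949 to 62407851 counts set the depth, and a value of 0 allows up to 3 counts, a limit that leaves out PCR error, since molecules carried no identifiers.

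Counts were tested with edgeR 4.0.16 in R 4.3.3 (TMM, filterByExpr by group, robust quasi-likelihood test, two-sided, Benjamini–Hochberg over all genes, threshold 0.05), between the 2 groups compared or, for the difference between cell types, over 16 libraries. Alternatives were DESeq2 1.42.0, limma-voom (limma 3.58.1) with sample weights, other scalings and filters, the replicate number as a block, 1 model of all libraries, and libraries left out. The members, gene lists and marker lists were chosen with earlier results of these data known, and the alternatives for the gene lists after seeing the data. Named genes are called members (at most 12 per comparison, otherwise the 3 with the lowest p), landmark subunits, isoform families and the extremes of each complex. Those without values in the text lie within the ranges given, and 1 that the rule names is not reported here. The fits were tested on simulated counts with 200 changed genes. Apart from these, the simulated libraries shared 1 mean profile and 1 dispersion. None was made with few genes detected, so the simulation does not cover such libraries. Promoters came from RefSeq (GRCm38.p6). Lengths were exon unions of the GENCODE annotation.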

Additional observations from a re-analysis of the deposited data

Results flagged for a closer look

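Of 88 groups of 4 libraries checked (sums over a complex, ratios, members at 0 and the CPM of 12 members), 9 held a library whose distance to its nearest neighbour passed Dixon's critical value. Chance gives about 1 in 20, or 4.4. The count includes 3 values of Sirt2-/- CD4+ replicate 4, 2 of WT CD8+ replicate 1 and 1 of WT CD4+ replicate 1, the libraries with few genes detected.

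In Sirt2-/- CD4+ replicate 4, 43 members were at 0 (7 in each of the other 3 libraries), the summed CPM of the complex II assembly factors was 0 (60.9 to 66.7 in the others) and Ndufa10 stood at 95.2 CPM (55.4 to 60.8). WT CD8+ replicate 1 had a ratio of mitochondrial- to nuclear-encoded subunits of 2.63 (0.726 to 0.986) and 96.3 CPM of Atp5f1 (160.2 to 171). WT CD4+ replicate 1 had a summed CPM of 114 for the complex I assembly factors (67.6 to 74.1). The remaining values came from libraries with the usual number of genes. Sirt2-/- CD4+ replicate 1 had a mitochondrial to nuclear ratio of 1.08 (1.55 to 1.57), Sirt2-/- CD8+ replicate 2 a complex III sum of 572 CPM (515 to 521) and WT CD4+ replicate 3 an Atp5b level of 264 CPM (297 to 299).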

How the results depend on the processing

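In WT TILs, the 10 members called higher in CD8+ than in CD4+ TILs became 18 with DESeq2, 44 with limma-voom, 16 with at least 10 counts in every library, 40 without the 3 libraries with few genes detected and 18 at an adjusted p below 0.1, and ranged from 2 to 23 without each library in turn. The 1 member called lower became 0 without a filter, with the replicate number as a block and in 1 model of all 16 libraries, and ranged from 0 to 1 without each library. In Sirt2-/- TILs, the 2 members called higher became 14 with DESeq2, 50 with limma-voom, 1 without a filter, 11 with at least 10 counts, 0 with the replicate block, 10 in 1 model of 16 libraries, 54 without the 3 libraries and 7 at an adjusted p below 0.1, and ranged from 1 to 54 without each library. No member called lower became 1 without the 3 libraries, with a range of 0 to 1. The median over the members of the genotype effect in CD8+ minus that in CD4+ TILs (0.32) was 0.011 with limma-voom. The causes were not tested. For the other main values, 180 alternatives gave the same reading, and all those of the tests of Sirt2-/- against WT called 0 members.

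Same-numbered libraries had correlations of their deviations of 0.119, 0.109, 0.118 and 0.067 between cell types in WT and 0.133, 0.029, -0.014 and -0.009 in Sirt2-/- TILs, and from -0.072 to 0.077 between genotypes. Those in WT were all above 0, and the correlations do not decide whether equal numbers share a mouse. The numbers were not used as pairs because the labels do not say so. The block gave 7 members higher and 0 lower in WT and 0 and 0 in Sirt2-/- TILs.

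Some log2 fold changes that were not called changed sign between CD8+ and CD4+ TILs. In WT, with limma-voom and without the 3 libraries, Atp5j2 went to 0.16 and 0.26, Ndufaf3 to 0.28 and 0.18 and Ndufv3 to 0.18 and 0.14. In Sirt2-/- TILs, Ndufaf3 went to -0.16 in both, Ndufc1 to 0.58 and 0.59 and Uqcrc2 to 0.12 and 0.14, and without the 3 libraries Cox7a2l went to -0.0054. With the replicate block, Atp5s went to 0.15, Ndufc1 to 0.046 and Sdhaf1 to 0.35. Without each library in turn, the ranges that crossed 0 were, in WT, -0.27 to 0.20 for Atp5j2, -0.0064 to 0.41 for Cox4i1, -0.46 to 0.095 for Ndufaf3, -0.049 to 0.33 for Ndufv1 and -0.29 to 0.19 for Ndufv3. They were, in Sirt2-/- TILs, -0.0054 to 0.65 for Cox7a2l, -0.16 to 0.51 for Ndufaf3, -0.61 to 0.59 for Ndufc1, -0.66 to 0.17 for Sdhaf1, -0.074 to 0.37 for Sdhd and -0.20 to 0.14 for Uqcrc2.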
